A study of Homo sapiens with 14 samples.

Results

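Chromatin regions occupied by GLTSCR1 and by the SS18::SSX fusion were compared in HS-SY-II cells, an established synovial sarcoma line, after 24 h with the BRD9 degrader WA-68. The GLTSCR1 list held 15330 regions and the fusion list 24846, which together make 40176 of the 183499 regions in the 9 lists of the series. All regions of both lists on chromosomes 1 to 22, X and Y were used. A region was shared when at least 1 bp of it lay in a region of the other protein, and it was otherwise GLTSCR1 only or fusion only. Of the GLTSCR1 regions 54.1% were shared, and of the fusion regions 26.6%. Of GLTSCR1-only regions 27.2% lay within 1 kb of a gene end, among them ends of histone and ribosomal protein genes such as H2BC3 and RPL15. Of fusion-only regions 16.3% did, among them ends of developmental and neuronal genes such as OTX2 and NEUROG2. Other such genes had both proteins, including 21 of 46 chromosome 6 histone genes and 22 of 39 HOX genes, against 5.83% of all genes. Neighbours in these clusters can share a region, so they are not independent. The classes are those of 24 h, and in other lists the fusion met the H2BC3 region and GLTSCR1 was called at NEUROG2.

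The GLTSCR1 library came from immunoprecipitation with an antibody to GLTSCR1 itself, and the fusion library from immunoprecipitation with an anti-HA antibody that binds a tagged SS18::SSX. Both were made from cells of the same line, given 100 nM WA-68 for the same 24 h, and both carry the genotype label WT. The labels do not say how the HA tag was introduced, or whether the tagged cells were a clone. For follow-up in other libraries, GLTSCR1 lists from DMSO vehicle and from 12, 48 and 96 h of WA-68 were used, with fusion lists from DMSO, 12 and 48 h. DMSO carries no time in the labels, and hours of WA-68 and hours in culture cannot be told apart.

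BRD9 and GLTSCR1 (encoded by BICRA) are subunits found in GBAF, the form of the BAF chromatin remodelling complex that lacks SMARCB1 and the ARID subunits. SS18 belongs to GBAF and to canonical BAF alike, so the fusion oncoprotein, in which the end of SS18 is replaced by the tail of an SSX protein, can enter either. The SSX tail binds nucleosomes that carry the ubiquitin mark of Polycomb complexes, and in synovial sarcoma the fusion is known for occupying Polycomb-marked CpG islands of developmental genes. GBAF is known for its place at active promoters and at CTCF sites.

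Each region carries the authors' fold enrichment of its strongest summit over background, a linear ratio from their peak caller, called the fold here. Folds were used to rank regions within a list, and a GLTSCR1 fold and a fusion fold are on different scales. Each group was 1 library, so there was no replicate error, no test between the proteins was possible, and no p-value is given. Intervals in brackets are exact 95% Clopper-Pearson intervals for shares and 95% Newcombe intervals for differences, all for counting error alone, and neighbouring regions are not independent. Peak lists do not give depth, and a region without a call lay below the caller's threshold, where the protein may still be present.

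The promoters of 8 genes with high folds are shown as examples of windows met by GLTSCR1 alone or by the fusion alone, and they are not typical of all such windows. Each window runs from 250 bases before the gene start to 50 bases after it, 5′ to 3′ on the gene's strand, from RefSeq (GRCh38.p14). Capitals mark CpG dinucleotides, the sites whose density defines a CpG island. The first pair is from genes with both proteins at an end and a high GLTSCR1 fold: LOC124909494 (chr3:147370407-147370706, minus strand), a neighbour of ZIC4, and the histone gene H2BC13 (chr6:27807880-27808179, minus strand). GPER1, the G protein-coupled oestrogen receptor (chr7:1086868-1087167, plus strand), and TTLL8, a tubulin-modifying enzyme (chr22:50058249-50058548, minus strand), had both proteins at an end and a high fusion fold. RFX1, a winged-helix transcription factor (chr19:14006271-14006570, minus strand), and the histone gene H2BC3 (chr6:26043664-26043963, minus strand) had GLTSCR1 only. F7, coagulation factor VII (chr13:113105541-113105840, plus strand), and PRDM13, a neural zinc-finger factor (chr6:99606583-99606882, plus strand), had the fusion only.
LOC124909494: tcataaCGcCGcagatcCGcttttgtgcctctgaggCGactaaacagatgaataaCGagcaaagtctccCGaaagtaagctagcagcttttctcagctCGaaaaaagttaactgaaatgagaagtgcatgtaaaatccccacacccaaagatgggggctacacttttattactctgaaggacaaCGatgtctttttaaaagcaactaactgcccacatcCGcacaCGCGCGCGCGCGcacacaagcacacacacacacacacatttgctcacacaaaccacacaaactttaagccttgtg
H2BC13: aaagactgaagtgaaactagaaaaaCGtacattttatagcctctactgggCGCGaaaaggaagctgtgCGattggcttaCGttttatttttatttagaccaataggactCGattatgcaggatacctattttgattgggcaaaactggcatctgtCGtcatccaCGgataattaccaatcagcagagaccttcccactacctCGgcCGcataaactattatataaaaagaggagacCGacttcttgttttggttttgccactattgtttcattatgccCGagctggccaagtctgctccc
GPER1: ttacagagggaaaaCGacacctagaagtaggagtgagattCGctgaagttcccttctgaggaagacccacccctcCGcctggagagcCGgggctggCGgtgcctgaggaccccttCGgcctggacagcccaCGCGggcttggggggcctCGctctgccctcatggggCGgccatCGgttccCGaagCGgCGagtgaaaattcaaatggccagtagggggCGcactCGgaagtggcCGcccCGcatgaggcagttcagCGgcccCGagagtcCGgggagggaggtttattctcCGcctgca
TTLL8: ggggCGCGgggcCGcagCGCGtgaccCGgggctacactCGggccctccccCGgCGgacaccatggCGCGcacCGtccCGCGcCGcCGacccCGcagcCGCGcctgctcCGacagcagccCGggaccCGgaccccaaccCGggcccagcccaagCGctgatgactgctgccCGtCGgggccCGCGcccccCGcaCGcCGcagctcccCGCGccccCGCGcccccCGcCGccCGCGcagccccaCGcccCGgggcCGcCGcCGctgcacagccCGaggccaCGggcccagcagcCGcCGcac
RFX1: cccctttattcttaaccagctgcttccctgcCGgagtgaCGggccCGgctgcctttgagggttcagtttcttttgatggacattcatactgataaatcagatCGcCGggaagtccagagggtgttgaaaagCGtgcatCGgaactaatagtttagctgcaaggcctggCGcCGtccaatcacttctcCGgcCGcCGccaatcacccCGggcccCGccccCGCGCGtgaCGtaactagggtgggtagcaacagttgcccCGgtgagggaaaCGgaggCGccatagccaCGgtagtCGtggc
H2BC3: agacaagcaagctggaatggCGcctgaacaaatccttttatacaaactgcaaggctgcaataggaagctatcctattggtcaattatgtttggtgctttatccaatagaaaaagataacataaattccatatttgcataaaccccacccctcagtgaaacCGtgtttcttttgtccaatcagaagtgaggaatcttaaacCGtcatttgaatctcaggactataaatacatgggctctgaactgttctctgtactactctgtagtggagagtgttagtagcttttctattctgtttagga
F7: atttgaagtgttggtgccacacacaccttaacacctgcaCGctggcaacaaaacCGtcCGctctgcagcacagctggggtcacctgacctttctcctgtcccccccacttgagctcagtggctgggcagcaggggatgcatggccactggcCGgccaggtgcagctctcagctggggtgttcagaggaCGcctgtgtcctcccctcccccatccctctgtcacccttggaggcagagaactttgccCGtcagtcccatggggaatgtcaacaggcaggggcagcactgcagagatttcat
PRDM13: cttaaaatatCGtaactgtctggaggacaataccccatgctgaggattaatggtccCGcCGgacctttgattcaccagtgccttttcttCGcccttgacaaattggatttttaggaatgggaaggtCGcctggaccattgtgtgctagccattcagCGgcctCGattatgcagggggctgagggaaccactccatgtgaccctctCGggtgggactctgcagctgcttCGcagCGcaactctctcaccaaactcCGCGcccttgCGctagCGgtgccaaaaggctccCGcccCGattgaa
TTLL8 had 48 CpG and 84.0% G+C in its 300 bases, the highest of the 8, and H2BC3 had 3 CpG and 38.7% G+C, the lowest. RFX1 held 23 CpG, GPER1 22, PRDM13 16, LOC124909494 15, H2BC13 12 and F7 6. Within these windows LOC124909494, H2BC13, RFX1 and H2BC3 were met by a GLTSCR1 region and by no fusion region. GPER1, TTLL8, F7 and PRDM13 were met by a fusion region and by no GLTSCR1 region. For the 4 genes with both proteins at an end, the other protein's region lay outside these 300 bases.

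Over all 15842 protein-coding promoters with a sequence, windows met by the fusion alone were richer in CpG than those met by GLTSCR1 alone. The 950 windows with GLTSCR1 alone (5.997% of all) had a median of 62.3% G+C and 24 CpG. The 1096 with the fusion alone (6.92%) had 71.3% G+C and 31 CpG, and the 308 with both (1.94%) had 65.8% and 26. The median of all windows was 62.7% G+C and 22 CpG, so windows with GLTSCR1 alone lay near the genome's promoters in G+C, and those with the fusion alone lay above them.

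Of the short motifs searched on both strands, several differed between the classes and others did not. The ETS core CCGGAAG was in 22% (19.4 to 24.8) of windows with GLTSCR1 alone, 8.21% (6.65 to 10.0) of those with the fusion alone, 10.7% with both and 14.2% of all windows. The YY1 motif was in 7.26% (5.69 to 9.10) with GLTSCR1 alone, 1.73% (1.05 to 2.69) with the fusion alone and 3.25% of all. ETS and YY1 motifs are common in promoters of housekeeping genes. The GC box GGGCGG, the core of SP and KLF factor sites, went the other way, with 63.1% (59.9 to 66.1) of windows with GLTSCR1 alone, 80.2% (77.7 to 82.5) with the fusion alone and 58.5% of all. CCAAT was in 39.3% with GLTSCR1 alone and 30.3% with the fusion alone, against 36.4% of all. The E-box CANNTG was in 56.2% and 58.9% of these windows, with overlapping intervals, and in 64.5% of all. Intervals also overlapped for the AP-1 motif TGANTCA (4.95% and 4.65%), the homeodomain core TAATTA (1.79% and 2.19%), the GATA motif AGATAA (4.84% and 3.83%) and the TATA box TATAAA (9.26% and 7.39%). These letters can fall in a window with no factor bound, the motifs were not corrected for base composition, and GGGCGG in particular moves with G+C.

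In numbers, 8301 GLTSCR1 regions were shared (54.1%, 53.4 to 54.9) and 7029 were GLTSCR1 only. Among fusion regions 6604 were shared (26.6%, 26.0 to 27.1) and 18242 were fusion only. GLTSCR1 regions covered 10.5 Mb and fusion regions 30.3 Mb, with 5.18 Mb in both, which is 49.5% of the GLTSCR1 length and 17.1% of the fusion length. These shares rest on lists of different length and width, with median widths of 451 bp for GLTSCR1 and 658 bp for the fusion.

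Shared regions were mostly small GLTSCR1 regions within larger fusion regions. In 5289 cases (63.7% of shared GLTSCR1 regions) the GLTSCR1 region lay wholly inside a fusion region, and in 758 (11.5% of shared fusion regions) a fusion region lay wholly inside a GLTSCR1 region. A fusion region met 2 or more GLTSCR1 regions in 1387 cases (21.0%), up to 14, while 322 GLTSCR1 regions (3.88%) met 2 or more fusion regions, up to 7. The strongest GLTSCR1 summit of a shared region lay a median of 147 bp from the nearest fusion summit, within 250 bp in 73.7% of cases and within 1000 bp in 99.4%. These regions were chosen by overlap, had a median width of 534 bp, and any fusion summit counted. Short distances are therefore in part set by the selection. With the strongest summit of each region alone, 22.3% of all GLTSCR1 regions had a fusion summit within 250 bp.

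Regions of a single protein lay at different distances from the other. The 7029 GLTSCR1-only regions were a median of 59.9 kb from the nearest fusion region, and 39.99% were more than 100 kb away. The 18242 fusion-only regions were a median of 9.05 kb from the nearest GLTSCR1 region, and 12.8% were more than 100 kb away. Near misses within 1 kb made up 11.3% of GLTSCR1-only and 13.3% of fusion-only regions.

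Sharing by any overlap was more common among weak regions in the GLTSCR1 list and among strong regions in the fusion list. GLTSCR1-only regions had a median GLTSCR1 fold of 5.03 (quartiles 4.13 and 6.33), against 4.70 (3.89 and 5.88) in shared ones. Fusion-only regions had a median fusion fold of 4.47 (3.8 and 5.42), against 5.65 (4.27 and 7.85) in shared ones. By deciles of GLTSCR1 fold, 62.6% of the weakest regions met the fusion, 44.7% in decile 9 and 53.5% in decile 10, the strongest. In the fusion list 20.3% of the weakest regions met GLTSCR1, 15.3% in decile 3, 41.2% in decile 9 and 66.9% in decile 10. Median width in the fusion list ran from 444 bp in the weakest decile to 3125 bp in the strongest, and a wider region has more bases to overlap. With strongest summits required to lie within 500 bp, the fusion list still went from 16.5% in decile 1 to 48.9% in decile 10, and the GLTSCR1 list had its lowest share, 28.8%, in decile 1 and its highest, 37.7%, in decile 10. The direction in the GLTSCR1 list thus turned with the rule.

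**Figure D1:**
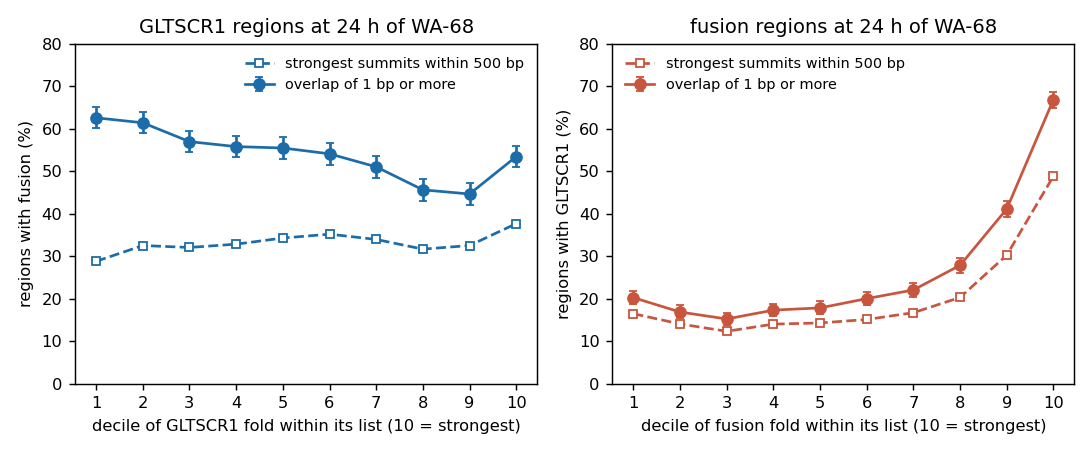
Share of regions that met the other protein at 24 h of WA-68 (y axis, %), by decile of fold within the list (x axis, 10 = strongest), for GLTSCR1 regions at left and fusion regions at right. Solid lines with 95% counting intervals count an overlap of 1 bp or more, dashed lines require strongest summits within 500 bp. The GLTSCR1 line falls to 44.7% in decile 9 and stands at 53.5% in decile 10, and the fusion line reaches 66.9% in decile 10.

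By overlap, strong GLTSCR1 regions and strong fusion regions were mostly different places. Among 4608 shared regions that met exactly 1 region of the other protein, the Spearman correlation of GLTSCR1 fold with fusion fold was 0.00576 and the Pearson correlation of log2 folds was -0.00181, across regions of the same pair of libraries. The fusion region was the wider of the pair in 76.6%, with median widths of 516 bp for GLTSCR1 and 1032 bp for the fusion. Of shared GLTSCR1 regions in the strongest GLTSCR1 decile, 18.5% met a fusion region of the strongest fusion decile, against 36.2% of all shared GLTSCR1 regions. Of shared fusion regions in the strongest fusion decile, 8.96% met GLTSCR1 of its strongest decile, against 14.7% of all shared fusion regions. Fusion regions of the strongest decile had a median width of 3125 bp and can hold several GLTSCR1 regions. The part of width in these shares was not tested, nor were strong regions paired by summit distance.

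**Figure D2:**
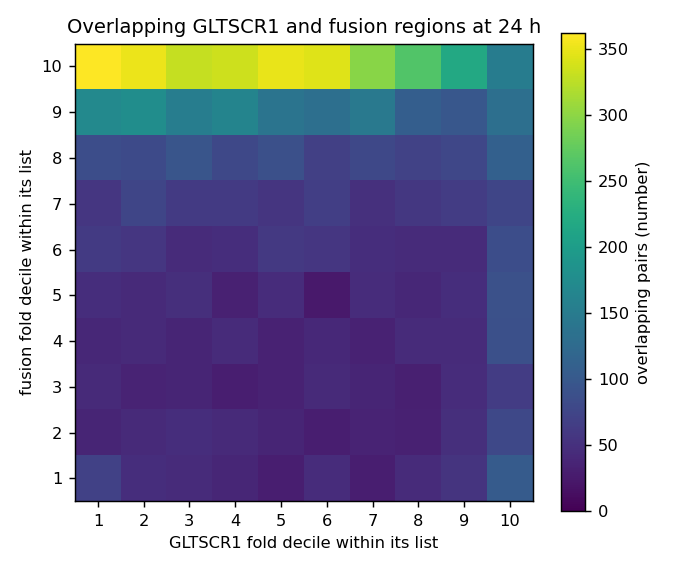
Number of overlapping pairs (colour) by GLTSCR1 fold decile (x axis) and fusion fold decile (y axis), each within its own list, over 8709 pairs. The row of fusion decile 10 holds the most pairs, 362 with GLTSCR1 decile 1 and 152 with GLTSCR1 decile 10.

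Very wide regions of the proteins were also mostly at different places. The GLTSCR1 list had 95 regions over 5 kb (1.11 Mb), of which 61 were shared, and the fusion list had 799 (6.85 Mb), of which 630 were shared. Wide regions of both proteins met at 5 places. The remaining wide shared regions paired a wide region of a protein with narrow ones of the other, as at DNM3. There a GLTSCR1 region of 54.9 kb with a fold of 37.4 (chromosome 1 at 172134748 to 172189614) met 5 separate fusion regions, the strongest 1.26 kb wide with a fold of 4.28. It covers DNM3OS, the non-coding transcript that carries the microRNAs MIR199A2 and MIR214. In MCF2L, which encodes a guanine nucleotide exchange factor, the fusion region with the highest fold of its list (56.4, 8.42 kb, chromosome 13 at 113063029 to 113071447) met a GLTSCR1 region 0.512 kb wide with a fold of 4.01.

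Away from gene ends, another strong shared region lay in CEP72 and TPPP on chromosome 5 (GLTSCR1 fold 33.0, fusion fold 7.09). Ranked by fusion fold, others lay 32.7 kb from PCBP3 (GLTSCR1 fold 13.1, fusion fold 26.6) and in CLYBL (8.85 and 23.2). All 5 of these shared regions, DNM3 and MCF2L included, were met by GLTSCR1 in its 4 other lists and by the fusion in its 3 other lists. The strongest GLTSCR1-only region lay outside genes on chromosome 4 at 112031484 to 112032156, 113 kb from FAM241A, with a GLTSCR1 fold of 50.5, and met the fusion in the 48 h list alone. The next were another DNM3 region of 12.7 kb (37.2) and a region 58.5 kb from ACOT11 (25.2), both met by the fusion in DMSO and at 12 and 48 h. The strongest fusion-only regions lay in ADAP1 (fusion fold 29.7), 13.6 kb from BHLHE23, a basic helix-loop-helix factor (29.6), and 139 kb from C16orf95 (19.4). GLTSCR1 met the ADAP1 region in DMSO and at 96 h and met the C16orf95 region in none of its lists.

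Regions with GLTSCR1 but no fusion lay at gene ends more often than shared ones. A gene end here is the 1 kb on either side of the first and last base of each of 20037 protein-coding gene spans. Of GLTSCR1-only regions 27.2% (26.2 to 28.3) met such a window, against 12.7% (12.0 to 13.4) of shared GLTSCR1 regions, a difference of 14.6 points (13.3 to 15.8, Newcombe). The difference was 6.03 points with strongest summits within 250 bp, 7.47 with 500 bp windows around the strongest summits and 9.70 without regions over 5 kb. Counted at gene starts alone, where the strand was known, the shares were 21.9% and 8.46%. Seen from place to place, the fusion met 35.5% of GLTSCR1 regions at gene ends, 59.3% of those inside gene spans and 58.0% of those outside them. In the fusion list the classes differed little in place: 16.3% of fusion-only regions and 17.9% of shared ones were at gene ends, a difference of -1.59 points (-2.67 to -0.534, Newcombe). That small difference turned positive, to 1.19 points, with 500 bp windows around the strongest summits, and to 1.32 points with lists of equal length.

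Within deciles of GLTSCR1 fold the gene-end difference was widest among weak regions and absent among the strongest. It was 28.7 points in decile 1 (38.7% of GLTSCR1-only and 10.0% of shared regions), 14.3 in decile 6 and -0.158 in decile 10 (16.5% and 16.7%), with a mean of 14.9 over deciles. In the fusion list it was -13.8 points in decile 1 (15.4% of fusion-only and 29.2% of shared regions) and 7.45 points in decile 10 (20.8% and 13.3%), with a mean of -3.19. Among weak fusion regions the shared ones, and among strong fusion regions the fusion-only ones, were thus more often at gene ends.

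**Figure D3:**
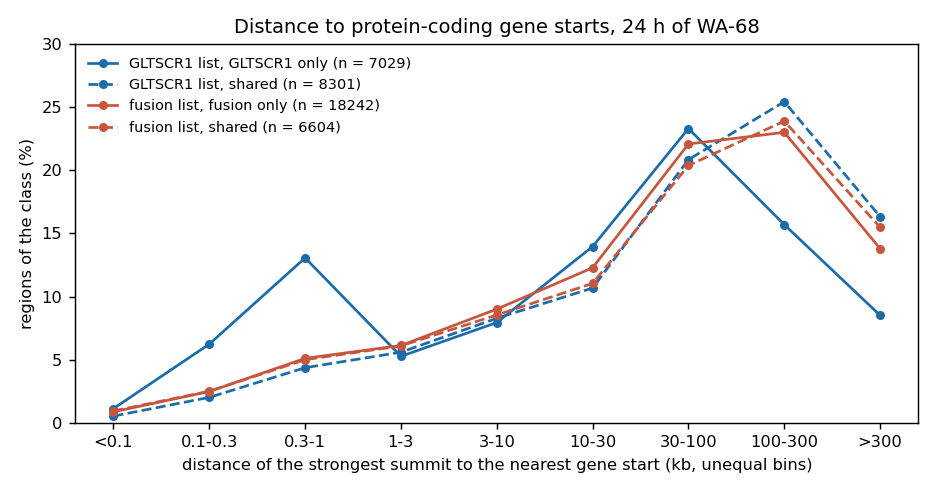
Distance of the strongest summit to the nearest protein-coding gene start (x axis, kb, in unequal bins) against the share of regions of each class (y axis, %), at 24 h of WA-68. GLTSCR1-only regions (solid blue) stand out between 0.3 and 1 kb, with 13.1% of regions, against 4.36% of shared GLTSCR1 regions, 5.10% of fusion-only and 5.00% of shared fusion regions.

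The distance from summit to gene start gave the same division in the GLTSCR1 list and not in the fusion list. GLTSCR1-only regions had a median of 34.1 kb and shared GLTSCR1 regions 91.7 kb. Fusion-only regions had a median of 68.6 kb and shared fusion regions 80.5 kb, although the shared ones were slightly more often at gene ends. Chromosomes differed as well. The share of GLTSCR1 regions with the fusion was 37.8% (32.8 to 43.1) on chromosome 19, 39.1% (34.3 to 44.2) on X and 43.0% (40.3 to 45.7) on chromosome 1, and it reached 62.9% (57.8 to 67.8) on chromosome 20. The share of fusion regions with GLTSCR1 was 15.6% (12.7 to 18.8) on chromosome 22 and 33.2% (29.5 to 37.1) on chromosome 18.

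By gene, 1168 of 20037 (5.83%) had both proteins at an end, 1773 (8.85%) had GLTSCR1 only and 2157 (10.8%) had the fusion only. No call of either protein was made at 14939 (74.6%). GLTSCR1, alone or with the fusion, was at 14.7% of genes and the fusion, alone or with GLTSCR1, at 16.6%. Both proteins at a gene need not share a region, and in gene clusters neighbours can share one.

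The genes with both proteins and the highest GLTSCR1 folds included DCN, ZIC4, ZIC1 and histone genes, where wide GLTSCR1 regions lay beside small fusion regions with low fusion folds. At DCN, the small leucine-rich proteoglycan decorin, a 17.2 kb GLTSCR1 region (fold 32.5, chromosome 12 at 91174153 to 91191384) held a fusion region of 0.454 kb with a fold of 3.91. A 53.6 kb GLTSCR1 region (32.3, chromosome 3 at 147346977 to 147400568) covered LOC124909494 and an end of ZIC4, a zinc-finger factor of neural development. The fusion folds at these ends were 3.58 and 4.11. At its neighbour ZIC1 the GLTSCR1 fold was 20.3 and the fusion fold 3.71. A 34.7 kb GLTSCR1 region (29.8, chromosome 6 at 27806304 to 27840985) spanned H2BC13, H2AC13, H2AC14, H2BC14, H4C11 and H4C12, replication-dependent histone genes, with fusion folds between 2.81 and 3.63. H2BC8 and H2AC8 shared a GLTSCR1 region of fold 26.9 with a fusion fold of 2.999, and H1-4, a linker histone gene, had 20.6 and 4.06.

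BRD2, a BET bromodomain reader of acetylated histones, had a GLTSCR1 fold of 23.1 and a fusion fold of 4.23. CSMD3 had 19.8 and 5.13, and here the fusion region, 2.58 kb wide, was wider than the GLTSCR1 region of 0.976 kb. GLTSCR1 was called at these genes in all 5 of its lists. The fusion was missing from BRD2 at 12 h, from H4C11 at 48 h, and from H2BC13 and H2AC13 in every fusion list other than that of 24 h.

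Ranked by fusion fold, the genes with both proteins had fusion regions of 12.0 kb or more that held GLTSCR1 regions of at most 1.2 kb. A fusion region of 37.4 kb (fold 22.8, chromosome 10 at 132778481 to 132815916) lay over an end of INPP5A, an inositol polyphosphate phosphatase gene, and of the neural homeobox gene NKX6-2, and held a GLTSCR1 region of 0.519 kb with a fold of 3.86. GPER1 had a GLTSCR1 fold of 3.92 and a fusion fold of 19.3, and TTLL8 with its neighbour MLC1 had 3.72 and 19.2. NKX2-2, a homeobox gene of the ventral neural tube, had 5.03 and 16.8. The pacemaker channel gene HCN2 and its neighbour POLRMT, the mitochondrial RNA polymerase, shared 4.53 and 16.7. SAMD11 and NOC2L shared 4.47 and 16.4, and LOC124901163 had 4.27 and 16.3. At PDGFA, a ligand of the PDGF receptors, the GLTSCR1 fold was 6.59 and the fusion fold 15.8, within a fusion region of 44.2 kb. The fusion was called at all of these genes in its 4 lists, whereas GLTSCR1 was missing at 12 h from TTLL8, MLC1 and LOC124901163, at 48 h from SAMD11 and LOC124901163, and at 96 h from NKX2-2.

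Among genes with GLTSCR1 and no fusion, where the GLTSCR1 region met no fusion along its whole length, the highest fold was that of KERA, which encodes the proteoglycan keratocan and lies in the same gene cluster as DCN. Its GLTSCR1 region spanned 51.5 kb with a fold of 43.5 (chromosome 12 at 91028894 to 91080426) and met no fusion region at 24 h, though it met fusion regions in DMSO and at 12 and 48 h. RFX1 followed with 31.6 in a narrow region of 0.770 kb (chromosome 19 at 14005725 to 14006494). The cytokinesis gene ECT2 had a GLTSCR1 fold of 24.2 (chromosome 3 at 172750016 to 172750689), 0.037 kb from its gene end, and ZC3H4, a zinc-finger gene that restrains non-coding transcription, had 17.7. ECT2 and ZC3H4 had GLTSCR1 in all 5 of its lists and the fusion in none of 4.

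Histone genes filled the rest of that list. H2BC3, H3C3 and H1-2 shared a 19.4 kb GLTSCR1 region of fold 28.5, H2BC4 and H2AC6 shared a region of fold 21.3, H3C2 and H2AC4 a region of 20.9, and H2BC11 and H2AC11 a region of 17.7. GLTSCR1 was called at all of them in every GLTSCR1 list. The fusion was called at each of them in at least 1 of its other lists.

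Among genes with the fusion and no GLTSCR1, where the fusion region met no GLTSCR1 along its whole length, F7 had the highest fusion fold, 15.8 (chromosome 13 at 113105290 to 113112479), and PRDM13 had 15.7. Genes whose fusion region met GLTSCR1 away from their ends are not ranked here, and some had higher folds, such as DLL1, a Notch ligand gene, with 17.3. The potassium channel gene KCNG2 had 15.2 in a region of 35.5 kb, and the GTPase gene RHOU 15.1 in a region of 22.1 kb. ARFGAP1 and the collagen gene COL20A1 shared a region of fold 15.1. CHRNA4, a nicotinic acetylcholine receptor gene, had 14.5, SALL3, a zinc-finger developmental factor, 13.2, and the mucin gene MUC6 13.1. All of them had the fusion in every fusion list. F7, PRDM13, ARFGAP1, COL20A1 and SALL3 had GLTSCR1 at an end in none of its 5 lists. KCNG2 had it at 96 h, RHOU in DMSO and at 96 h, MUC6 in DMSO and at 12 h, and CHRNA4 in every list other than that of 24 h.

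The genes of the proteins under study had weak calls or none. BRD9, the target of WA-68, had the fusion only, with a fold of 3.25 in the weakest decile. The fusion was called there in every fusion list and GLTSCR1 in DMSO alone. BICRA, which encodes GLTSCR1, had neither at 24 h and GLTSCR1 at 12 h alone. SS18 had GLTSCR1 only at 24 h, with a fold of 3.78. GLTSCR1 was called there in all 5 of its lists, and the fusion in DMSO and at 12 h. SSX1, SSX2, SSX2B, SSX3, SSX4, SSX4B, SSX5 and SSX7 had no call in any list.

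The 13 lists of genes, 471 in all, divided by function, and their counts stand against 5.83% of all genes with both, 8.85% with GLTSCR1 only and 10.8% with the fusion only. The lists were chosen with earlier results of these data known, so their counts describe these genes and are not independent results. Of 20 synovial sarcoma genes with known links to the fusion, 8 had both proteins, 0 GLTSCR1 only, 11 the fusion only and 1 neither. These genes were picked for that link, so their fusion calls are not an independent result. TLE1, a Groucho corepressor used as a diagnostic marker, had a GLTSCR1 fold of 7.25 and a fusion fold of 4.50, and the mesenchymal factor TWIST1 had 6.82 and 5.44. FZD10, a Wnt receptor, had 6.45 and 6.12, and MNX1, a motor neuron homeobox gene, 4.32 and 12.6. LMX1B, ZIC5 and SIM2 had the fusion alone at their ends, with folds of 11.4, 9.22 and 8.57. In 7 of the 11 fusion-only genes the strongest fusion region met GLTSCR1 away from the gene end, so GLTSCR1 was near them though not at the end.

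Among developmental regulators, most HOX genes held both proteins. Of 39 HOX genes, which set position along the body axis, 22 had both, 1 had GLTSCR1 only, 13 the fusion only and 3 neither. The 23 with GLTSCR1 rest on 18 GLTSCR1 regions, and the 35 with the fusion on 30 fusion regions. HOXC10 and HOXC11 had the highest GLTSCR1 fold (12.1, with fusion folds of 5.90 and 8.68), and a 27.9 kb region over HOXA10 and HOXA11 the highest fusion fold (13.7, with a GLTSCR1 fold of 4.66). HOXB13 was the HOX gene with GLTSCR1 alone (7.11), and HOXA2 had the fusion alone (11.3). Of 50 other developmental factors 19 had both, 0 GLTSCR1 only, 21 the fusion only and 10 neither. DLX2 had 12.4 for GLTSCR1 and 7.59 for the fusion, FOXC1 8.94 and 9.02, and FOXF2 4.45 and 11.6. GBX2, LHX2 and OTX2, brain patterning homeobox genes, had the fusion alone with 13.2, 12.6 and 10.2. In 5 of the 21, GBX2 and LHX2 among them, the fusion region met GLTSCR1 away from the gene end.

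Signalling and neuronal genes leaned to the fusion too. Of 62 signalling genes, 19 had both, 3 GLTSCR1 only, 17 the fusion only and 23 neither. Among ligands, FGF8 had a GLTSCR1 fold of 10.2 and a fusion fold of 8.27, and WNT7B 10.1 and 11.7. BMP4 and SHH had the fusion alone at their ends with 8.69 and 7.32, and the SHH region met GLTSCR1 elsewhere. The receptor gene PDGFRA and the ligand gene WNT5A had GLTSCR1 alone, with 7.39 and 6.14, and the inhibitor gene SPRY4 had both, with 8.91 and 4.39. Of 35 neuronal genes 3 had both, 0 GLTSCR1 only, 11 the fusion only and 21 neither, with folds of 11.7 at the proneural factor gene NEUROG2 and 10.3 at the glutamate receptor gene GRIN1.

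Among growth and housekeeping genes GLTSCR1 only was more frequent than the fusion only, most clearly at ribosomal protein genes. Of 38 ribosomal protein genes, 8 had both, 14 GLTSCR1 only, 3 the fusion only and 13 neither. RPL23 had a GLTSCR1 fold of 16.8 and a fusion fold of 5.77, RPL15 and RPS23 had GLTSCR1 alone with 9.15 and 7.99, and RPL11 the fusion alone with 6.09. Of 31 proteasome genes 1 had both, 5 GLTSCR1 only (16.1%), 1 the fusion only (3.23%) and 24 neither (77.4%). Of all genes 8.85% had GLTSCR1 only, 10.8% the fusion only and 74.6% neither. Most proteasome genes, like most genes, were thus without a call, and PSMA4 led with a GLTSCR1 fold of 5.22. Of 30 cell cycle and MYC genes 4 had both, 7 GLTSCR1 only, 3 the fusion only and 16 neither. CDK6 had 6.52 and 4.34 and MYC 4.82 and 4.22 for GLTSCR1 and the fusion. The CDK inhibitor genes split: CDKN2A had both (4.00 and 5.32), CDKN2B GLTSCR1 alone (6.45), and CDKN1B and CDKN1C the fusion alone (8.55 and 6.57). The cyclin gene CCNE1 had GLTSCR1 alone (6.22).

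The histone genes of chromosome 6 stood at the far end of the GLTSCR1 side. Of 46, 21 had both, 23 GLTSCR1 only, 0 the fusion only and 2 neither. The median GLTSCR1 fold of the 44 with a call was 19.1, against 5.00 over all genes with GLTSCR1 at an end, and the median fusion fold of the 21 was 3.63, against 4.79 over all genes with the fusion. These 44 genes rest on 20 GLTSCR1 regions, and the 21 on 16 fusion regions, so the genes are not independent. The list was chosen with earlier results of these data known, so its counts and folds are a description alone. For 11 of the 23 GLTSCR1-only genes the GLTSCR1 region met the fusion elsewhere along its length.

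The remaining lists were of chromatin, matrix and immediate early genes. Of 31 BAF, PBAF and GBAF subunit genes 4 had both, 7 GLTSCR1 only, 4 the fusion only and 16 neither. ARID1A, a canonical BAF subunit, had a GLTSCR1 fold of 7.69 and a fusion fold of 3.47, the GBAF subunit gene BICRAL had GLTSCR1 alone (6.23) and so did SMARCE1 (6.01), and SMARCB1 had the fusion alone (4.65). Of 35 Polycomb and KDM2B complex genes 9 had both, 6 GLTSCR1 only, 2 the fusion only and 18 neither. BMI1 had a GLTSCR1 fold of 4.00 and a fusion fold of 11.5. BCOR, of the complex with KDM2B, had GLTSCR1 alone at its ends with 13.1, in a region that met the fusion elsewhere. Of 31 mesenchymal and matrix genes 5 had both, 3 GLTSCR1 only, 5 the fusion only and 18 neither. LUM (lumican, 31.3) and COL1A1 (10.5) had GLTSCR1 alone at their ends, and the LUM region met the fusion elsewhere along its length. SNAI1 (6.67) and CDH2 (6.32) were among those with the fusion alone. Immediate early genes leaned to the fusion, and of 23, 4 had both, 3 GLTSCR1 only, 12 the fusion only and 4 neither. KLF6 had 11.3 and 6.40, JUND 10.3 and 3.61, KLF2 GLTSCR1 alone (6.11), and IER5 and FOSL1 the fusion alone (6.29 and 5.38).

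**Figure D4:**
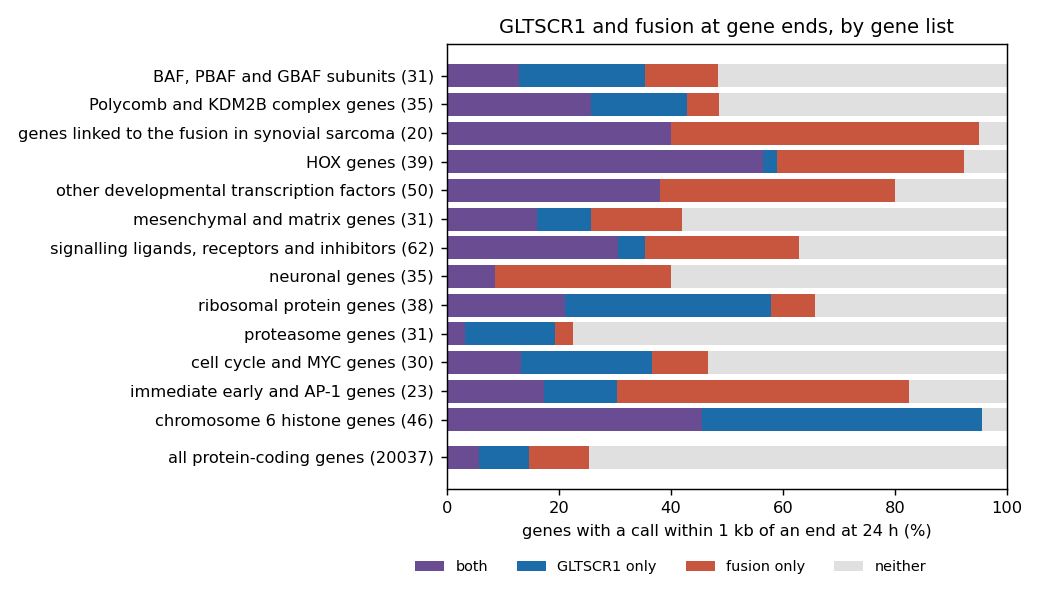
Share of the genes of each list (x axis, %) with both proteins, GLTSCR1 only, the fusion only or neither within 1 kb of an end at 24 h, with all 20037 protein-coding genes at the bottom and the number of genes in brackets. Fusion-only genes were 11 of 20 in the synovial sarcoma list, which was picked for links to the fusion, and 0 of 46 in the histone list. GLTSCR1-only genes were 23 of these 46. Of all genes 10.8% were fusion only and 8.85% GLTSCR1 only.

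The same regions were then looked up in the other lists of the series. Shared GLTSCR1 regions were called again more often than GLTSCR1-only ones. GLTSCR1 was called in DMSO and at 12, 48 and 96 h at 70.4, 64.2, 66.2 and 68.8% of shared GLTSCR1 regions, and at 53.9, 57.1, 46.3 and 53.6% of GLTSCR1-only ones. Within deciles of GLTSCR1 fold the mean difference, shared minus GLTSCR1 only, was 16.6, 8.38, 21.8 and 16.9 points in the same order, and it was above 0 in 9, 7, 10 and 10 of 10 deciles. The fusion was called in DMSO and at 12 and 48 h at 88.8, 87.2 and 86.4% of shared fusion regions and at 65.2, 69.1 and 67.8% of fusion-only regions. These mean differences within deciles of fusion fold were 16.4, 10.3 and 10.2 points, above 0 in every decile. Shared regions were also wider, with medians of 534 against 391 bp in the GLTSCR1 list and 1270.5 against 570 bp in the fusion list. A wider region has more bases to meet a call, the deciles are of fold and not of width, and the part of width was not tested.

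**Figure D5:**
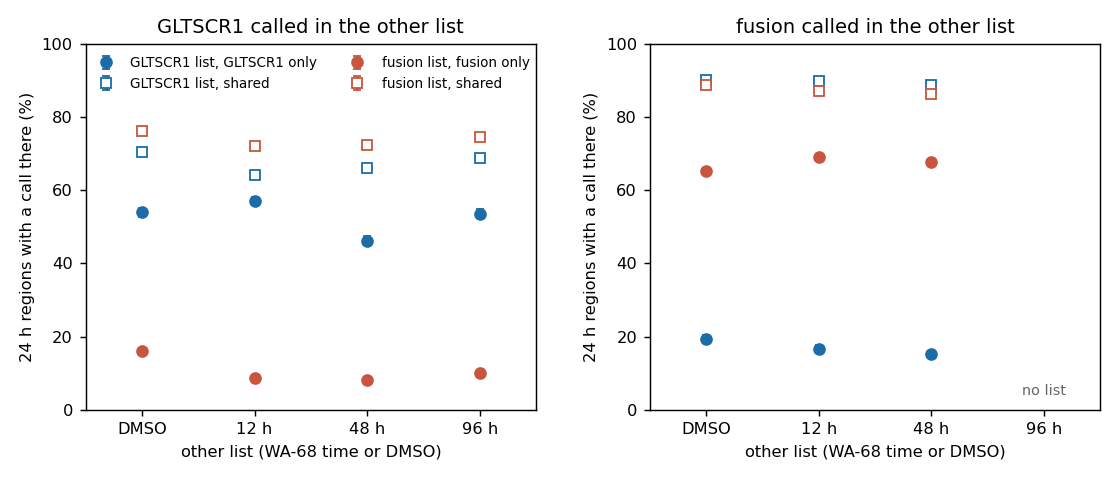
Share of the 24 h regions of each class (y axis, %) at which GLTSCR1 (left) or the fusion (right) was called in each other list (x axis, DMSO or WA-68 time). Filled circles are regions of 1 protein alone and open squares shared regions, with 95% counting intervals. In these other lists the fusion was called at 88.8 to 90.3% of shared GLTSCR1 regions and at 15.2 to 19.5% of GLTSCR1-only regions.

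At most single-protein regions of 24 h the other protein was not called in the other lists either. Such a region may lack its own protein's call in those lists too. Of GLTSCR1-only regions, 4803 (68.3%) met no fusion region in DMSO or at 12 or 48 h, and 386 (5.49%) met the fusion in all 3. Of fusion-only regions, 13759 (75.4%) met no GLTSCR1 region in DMSO or at 12, 48 or 96 h, and 306 (1.68%) met GLTSCR1 in all 4. At gene ends the shares that met the other protein in no other list were lower, 63.4% of GLTSCR1-only and 62.5% of fusion-only regions. The strongest GLTSCR1-only regions that never met the fusion were those at ECT2 and ZC3H4 (24.2 and 17.7), a region 18.7 kb from FOS, the immediate early AP-1 gene (21.8, chromosome 14 at 75258256 to 75260141), a region 186 kb from MCTP2 (21.7) and a region 252 kb from PMFBP1 (17.6). The strongest that met the fusion in all 3 other lists were those at KERA, in DNM3, at H2BC3 and near ACOT11, and a region over the non-coding gene MALAT1 (17.6, chromosome 11 at 65496339 to 65500088). Strong fusion-only regions that never met GLTSCR1 lay 139 kb from C16orf95 (19.4), in ATP11A (16.2) and 28.0 kb from LOC105370092 (15.99). Another (16.1) lay on chromosome 21 over the pseudogene LOC110467529, 428 kb from the nearest protein-coding gene, LOC102723475. Those that met GLTSCR1 in all 4 other lists were at KCNG2 (15.2), 100 kb from KIF26A (14.99) and at GPR146 (12.6). The same held on both sides of a gap 16.7 to 27.6 kb from the somatostatin receptor gene SSTR5 (14.9 and 13.2).

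At gene ends GLTSCR1 calls were fewest at 48 h in every class, with the largest drop in points from DMSO among GLTSCR1-only regions. GLTSCR1 was called at 83.2, 78.7, 39.6 and 53.4% of GLTSCR1-only regions at gene ends in DMSO and at 12, 48 and 96 h. Shared GLTSCR1 regions at gene ends had 85.8, 77.1, 68.8 and 73.8% in the same lists. Away from gene ends, GLTSCR1-only regions had 43.0, 49.0, 48.8 and 53.7% and shared regions 68.1, 62.3, 65.9 and 68.1%. Fusion-only regions at gene ends met GLTSCR1 in 28.9, 16.7, 10.2 and 12.2% of cases. The GLTSCR1 list at 48 h was the shortest of the 5, with 13677 regions, against 15330 to 18037 in the others, and the part of list length in these shares was not tested.

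Gene by gene the calls of the other times were as follows. Of the 1773 genes with GLTSCR1 only at 24 h, 60.9% had GLTSCR1 only and 27.4% had both in DMSO, while at 48 h 26.8% had GLTSCR1 only, 14.7% had both and 51.0% had neither. Of the 2157 genes with the fusion only, 34.9% had the fusion only, 30.2% both, 9.60% GLTSCR1 only and 25.4% neither in DMSO, and 54.8% had the fusion only at 48 h. Of the 1168 genes with both, 74.1% had both in DMSO and 58.6% at 48 h.

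The balance of the proteins at gene ends differed between the times. In DMSO and at 12, 24 and 48 h, genes with both proteins numbered 2591, 1916, 1168 and 1356. Genes with GLTSCR1 only numbered 3643, 3405, 1773 and 874 in the same order, and genes with the fusion only 1281, 1805, 2157 and 2376. The share of fusion genes that also had GLTSCR1 was 66.9, 51.5, 35.1 and 36.3%, and the share of GLTSCR1 genes that also had the fusion was 41.6, 36.0, 39.7 and 60.8%. Fusion-only genes thus outnumbered GLTSCR1-only genes at 24 and 48 h and not in DMSO or at 12 h. Each time is 1 library a protein, and no test of these differences was possible.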

How the data were processed

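ChIP-seq peak lists of 9 libraries were used, 1 per antibody and condition, with the GLTSCR1 and fusion lists of 24 h as the comparison. The 5 input libraries were not analysed here. Per the submitters' processing notes, positions are on GRCh38, and the tools named are BWA, MACS2, Picard, SAMtools, deepTools, FastQC, bcl2fastq, cutadapt and Trim Galore. Their versions and settings, and whether inputs served as controls, were not given in the sources used here. The authors deposited for each peak a summit fold enrichment, a linear ratio, and −log10 p and −log10 q values, with a lowest −log10 q of 3.00 in both 24 h lists. Their threshold decides which regions exist, and depth is unknown.

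Entries with equal coordinates were joined into 1 region with the values of its strongest summit (22957 entries for GLTSCR1, 53569 for the fusion). Overlaps of at least 1 bp, gene ends (within 1 kb of the first or last base of a protein-coding span, from a GRCh38.p14 gene table without strand) and fold deciles within a list were computed with Python 3.11.15, numpy 2.4.6, pandas 2.3.3 and scipy 1.17.1. The overlap code was tested on simulated data. Promoters of 300 bases with strand came from RefSeq for 15842 of 20037 genes (79.1%), and no region sequence was read.

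Named genes were the 8 highest by each protein's fold with both proteins at an end and the 8 highest with 1 protein, where the region was of that class, and up to 3 members per class of each gene list. Away from gene ends, the 3 strongest regions of each class were named, with the 5 strongest single-protein regions that met the other protein in none or in all of the other lists. BRD9, BICRA, SS18 and the SSX genes were named in any case. Neighbours that share a region counted as 1. A few genes and regions that the rule names are left out of the text. The comparison and the gene lists were chosen with earlier results of these data known. Alternatives were other overlap rules, summit windows, a stricter q, lists of equal length, wide regions left out, regions merged, all contigs and other gene windows.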

Additional observations from a re-analysis of the deposited data

Results flagged for a closer look

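Regions outside chromosomes 1 to 22, X and Y took no part in the comparison. On those other contigs the GLTSCR1 list at 24 h held 24 regions on 10 contigs, 13 of which met the fusion, with a highest fold of 8.63. The fusion list held 60 regions on 13 contigs, 10 of which met GLTSCR1, with a highest fold of 16.7. They stand out as signal in data that the comparison does not use.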

How the results depend on the processing

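The share of GLTSCR1 regions with the fusion was 54.15%. It was 50.57% with an overlap of 50% of the shorter region, 22.33% with strongest summits within 250 bp, 44.12% with any summits, 33.13% with 500 bp windows around the strongest summits, 48.68% at −log10 q of 5 or more, 44.57% with lists of equal length, 43.47% without regions over 5 kb and 52.19% with regions within 500 bp merged. The share of fusion regions with GLTSCR1 was 26.58%, and in the same order 24.36, 13.78, 22.33, 20.24, 25.34, 32.27, 24.2 and 31.32%. The 50% rule can only lower both shares by construction. Lists of equal length drop fusion regions alone, so the share of GLTSCR1 regions with the fusion can only fall there too. For the other changes the cause was not tested. The gene-end difference in the GLTSCR1 list, GLTSCR1 only minus shared, was 14.56 points and stayed above 0 under all 12 alternatives. It was 6.028 with strongest summits, 12.05 with any summits, 7.465 with 500 bp summit windows, 17.21 with lists of equal length, 9.702 without wide regions, 13.03 with merging and 13.26 with 500 bp gene windows. The difference in the fusion list, -1.59 points, was -0.2133 with strongest summits and turned to 1.194 with 500 bp summit windows and 1.317 with lists of equal length. The count of genes with both proteins was 1168, against 711 with lists of equal length, which drops fusion regions, and 743 at gene starts alone, which are fewer windows. It was between 841 and 1742 under the other alternatives, and the rules on how regions meet do not enter it. No paired analysis was possible because each group held 1 library, and for the same reason no library could be left out. Peak lists give neither depth nor signal below the caller's threshold.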

Other observations

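Some related or neighbouring genes fell into different classes at 24 h, chosen here after their values were seen. A single fusion region of 27.9 kb with a fold of 13.7 lay over HOXA7, HOXA9, HOXA10 and HOXA11, and GLTSCR1 was called at the ends of HOXA10 and HOXA11 (4.66) and not at those of HOXA7 and HOXA9. The Polycomb-linked gene BCORL1 had the fusion alone with 5.47, while its paralogue BCOR had GLTSCR1 alone at its ends with 13.1, in a region that met the fusion elsewhere. Of the Snail family genes, SNAI1 had the fusion alone (6.67) and SNAI2 GLTSCR1 alone (4.37).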
